A study of Mus musculus with 35 samples.

Results

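The genes Tal1, Lmo2, Lyl1, Gata2, Nfe2 and Myb, which code for transcription factors of blood stem cells and for their bridging cofactor, were followed across every array of a study of mouse hematopoietic stem cells. Their probe sets were those for which the platform annotation gives one of these 6 gene symbols and no other. The rule found 10 probe sets among 12422 (8251 genes carried a probe set of their own): 1 for Tal1, 1 for Nfe2, and 2 each for Lmo2, Lyl1, Gata2 and Myb. All 10 were kept, and a gene with a pair of probe sets is described by both.

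Tal1 and Lyl1 are closely related basic helix-loop-helix proteins that bind E-box sequences together with E proteins such as Tcf3, Tcf4 and Tcf12. Lmo2 does not bind DNA itself; it is a LIM-domain protein that joins a Tal1 or Lyl1 dimer, through Ldb1, to a GATA factor, which in stem and progenitor cells is Gata2. Nfe2 is the blood-restricted subunit of a dimer with small Maf proteins and is known for its part in platelet and globin gene expression, and Myb is a DNA-binding factor of proliferating progenitors, known also in developing T cells.

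Transcripts were measured on Affymetrix MG-U74Av2 arrays after amplification of the mRNA of very few cells from the marrow of C57Bl/6 CD45.1 mice, given as C57Bl/6 in the labels. The stem-cell-enriched side population (SP), which extrudes the dye Hoechst, was gated on Sca-1 expression and absence of Gr-1. LSP samples held the cells low in the SP region and USP samples those high in it, while CD8 samples were marrow T cells positive for CD3 and CD8, and each of these 3 populations had 3 samples, every one a pool of 4 amplifications of 10 cells hybridized to 2 arrays. The single-cell experiment had 12 sorted SP cells, 1 per reaction, beside 5 single-cell-equivalents (SCE), aliquots of 1 lysate of 40 SP cells, each of the size of 1 cell, with 1 array per cell or aliquot. The labels call the mice of the LSP, CD8, single-cell and SCE samples male and give no sex for USP. The marrow of a single mouse served each sort, and it is not labelled which of the samples were of one animal, so p-values over samples cover the spread between these samples, part of which may be technical. SCE share 1 lysate and were amplified and hybridized apart. Tests of cells against SCE therefore do not cover the spread between lysates.

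The start regions of the genes are shown because Tal1, Lyl1 and Gata2 are themselves binders of E-box and GATA sequences. RefSeq windows of 300 bases (GRCm38.p6, from 250 bases before to 50 bases after a start) were at hand for Tal1, Lyl1, Gata2 and Myb, 6 windows for these 4 genes. Capitals mark matches to CANNTG (an E-box) or GATAA on either strand in the 4 windows that held one, printed in the direction of transcription.
Tal1, first start, chr4:115056176-115056475, plus strand: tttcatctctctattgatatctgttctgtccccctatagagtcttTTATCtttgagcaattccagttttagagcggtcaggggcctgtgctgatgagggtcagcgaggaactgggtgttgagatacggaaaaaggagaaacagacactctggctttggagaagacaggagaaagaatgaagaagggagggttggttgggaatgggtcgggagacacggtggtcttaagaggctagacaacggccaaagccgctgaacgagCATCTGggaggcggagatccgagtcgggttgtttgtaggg
Lyl1, chr8:84701207-84701506, plus strand: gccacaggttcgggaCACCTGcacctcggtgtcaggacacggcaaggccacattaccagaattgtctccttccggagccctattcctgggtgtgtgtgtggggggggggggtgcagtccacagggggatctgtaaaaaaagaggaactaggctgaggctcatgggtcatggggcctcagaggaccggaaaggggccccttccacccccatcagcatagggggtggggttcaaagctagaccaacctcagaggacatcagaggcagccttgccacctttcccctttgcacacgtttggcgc
Gata2, second start, chr6:88198414-88198713, plus strand: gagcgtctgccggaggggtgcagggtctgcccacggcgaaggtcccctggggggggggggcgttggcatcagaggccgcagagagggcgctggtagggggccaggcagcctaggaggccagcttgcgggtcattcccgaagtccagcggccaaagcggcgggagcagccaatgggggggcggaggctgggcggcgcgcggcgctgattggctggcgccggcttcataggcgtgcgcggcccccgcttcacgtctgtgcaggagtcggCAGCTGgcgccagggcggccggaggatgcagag
Myb, chr10:21160935-21161234, minus strand: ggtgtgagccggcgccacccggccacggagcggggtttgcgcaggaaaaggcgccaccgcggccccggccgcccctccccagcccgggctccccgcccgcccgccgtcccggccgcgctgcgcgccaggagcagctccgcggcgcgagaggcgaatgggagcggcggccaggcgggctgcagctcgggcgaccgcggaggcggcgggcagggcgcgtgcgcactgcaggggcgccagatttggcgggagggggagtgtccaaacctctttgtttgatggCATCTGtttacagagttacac
The first Tal1 window held TTATC, the reverse complement of GATAA, 205 bases before the start and CATCTG 10 bases after it. The Lyl1 window held CACCTG 235 bases before its start, the second Gata2 window CAGCTG 17 bases after, and the Myb window CATCTG 29 bases after. Neither motif was in the second Tal1 window or the first Gata2 window. Such matches are common: over all 32851 windows of the same length, 72.3% held CANNTG and 25.4% held GATAA. A match of letters is a description of the sequence and not a measured binding site.

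The arrays were scaled by the authors to a like trimmed mean (242.3 to 248.1 intensity units), but 9 of the 12 ten-cell SP arrays held 24.6% to 32.1% negative values, whereas all CD8 arrays, the other SP arrays and all single-cell and SCE arrays held positive values alone. Ten-cell levels were therefore taken as log2 intensities with a floor of 7 (128 intensity units), and a probe set was called detected at a log2 level of 9 (512 units) or more. The populations carried their labels' markers: 8 of 9 tested T cell genes were lower in SP than in CD8, and of 5 tested stem cell genes Tie1, Procr and Meis1 were higher in SP. Of the markers of other cells, S100a8 of granulocytes was higher in SP by 3.77 on the log2 scale (adjusted p = 0.00572), and so was Emcn of endothelium by 4.08 (adjusted p = 0.000258, limma). Granulocyte markers detected were 1 to 5 of 7 in the SP samples, with 5 in USP O, and 0 in each CD8 sample, and endothelial ones were 1 of 4 (Emcn) in every SP sample and 0 in CD8. Their part in the differences below was not tested. Without USP O, 3 member probe sets were called higher in SP, but this was not particular to USP O. The count was 3 also without LSP B or USP Z, and 2 without LSP A or USP N. Probe sets detected numbered 1889 to 2321 on LSP arrays, 1737 to 2234 on USP arrays, 1194 to 1489 on single-cell arrays, 1351 to 1563 on SCE arrays and 1927 to 2099 on CD8 arrays. Fewer cells with a transcript and less transcript per cell cannot be told apart in ten-cell samples.

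The comparison of SP with CD8 asked which transcripts set the stem-cell-enriched population apart from another resting blood cell. Of the 9 probe sets above the floor in any sample, 4 were higher in the 6 SP samples than in the 3 CD8 samples after Benjamini-Hochberg adjustment over all 6823 probe sets tested with limma: Lmo2 96810_at, Myb 92644_s_at, Tal1 97973_at and Nfe2 98010_at. Over all probe sets tested, 2.83% were higher in SP and 3.0% were lower, and none of the 9 was lower. The median difference of the 9 was 2.33 on the log2 scale, against 0.04 over all probe sets tested. In 5 of the 9, one each of Tal1, Lmo2, Gata2, Nfe2 and Myb, every SP sample lay above every CD8 sample, which held for 5.53% of all probe sets tested. These 6 genes were chosen for their known place in stem cells, so the counts describe them and are no test of the group.

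**Figure D1:**
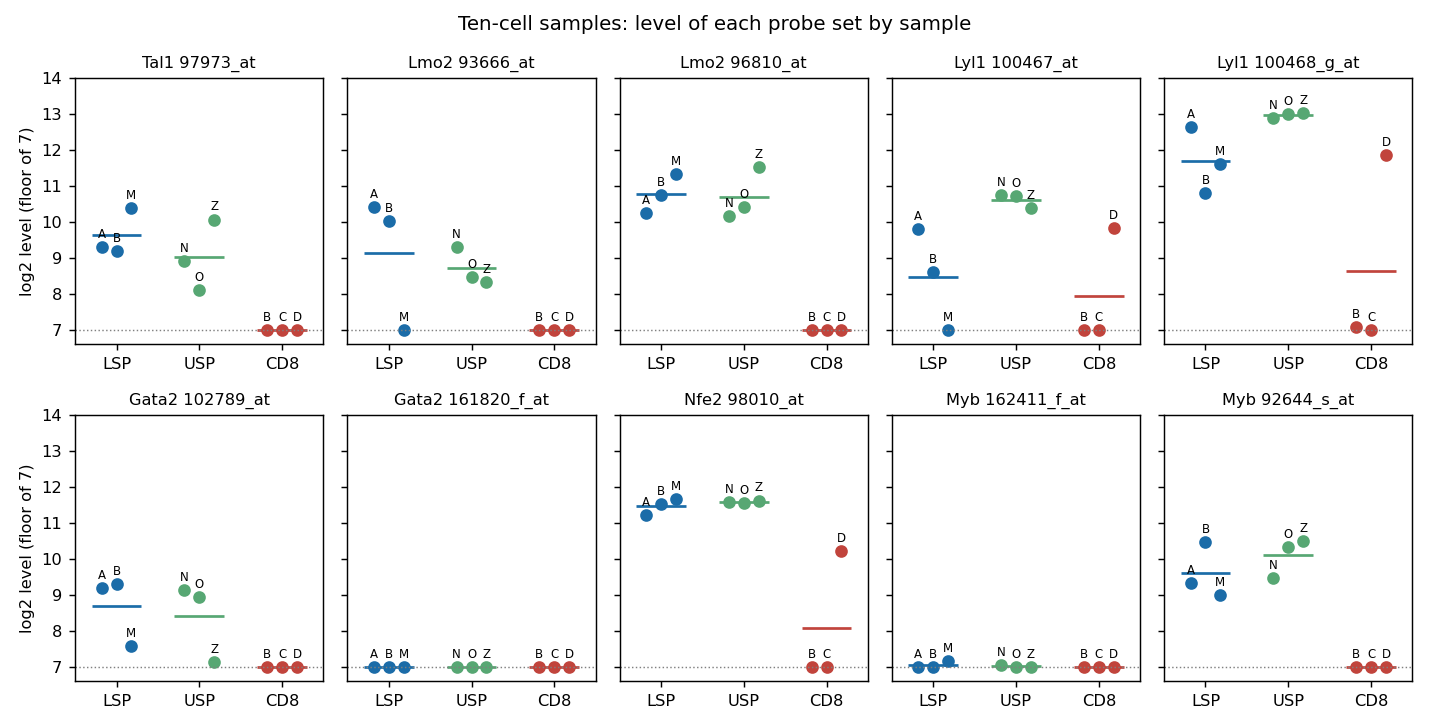
Log2 level (y axis, floor of 7, dotted line) of the 10 probe sets in 9 ten-cell samples of LSP, USP and CD8, where a point is a sample named by its letter and the mean of 2 arrays, each bar the mean of a population. CD8 samples sit at the floor in 7 of the 10 panels, and CD8 D alone is high for Nfe2 and for both probe sets of Lyl1.

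Tal1, a basic helix-loop-helix factor needed for blood formation, was at log2 levels of 9.32, 9.18 and 10.40 in LSP samples A, B and M, of 8.91, 8.11 and 10.07 in USP samples N, O and Z, while each CD8 sample lay at the floor. LSP M and USP Z were the highest samples of their populations. Every SP sample was above the CD8 samples, but USP N and O were under the detection level of 9, with USP O nearest to the floor. The difference was 2.33 ± 0.46 (SE, 6 SP and 3 CD8 samples, limma adjusted p = 0.0323), at least 5.04-fold since the CD8 level is a bound. The deposited intensity was between 222.6 and 1517 on the 12 SP arrays, against 3.20 to 50.1 on the CD8 arrays. The call was close to the threshold: the adjusted p was 0.0505 without LSP A, 0.0636 without USP N, and 0.107, 0.104 and 0.111 without CD8 B, C or D, with the difference between 2.07 and 2.56 whichever sample was left out. It was 0.149 with a floor of 8, the highest over all 18 settings, where the difference was 1.35 (2.55-fold), 0.0948 with no filter and 0.0554 after quantile normalization.

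Lyl1, the near relative of Tal1, gave a different picture in CD8. The probe set 100468_g_at was at 12.66, 10.81 and 11.61 in LSP A, B and M and at 12.89, 13.00 and 13.05 in USP N, O and Z, while CD8 B was at 7.07, CD8 C at the floor and CD8 D at 11.85. The second probe set, 100467_at, gave another order within LSP, with LSP M below LSP B, and was at 9.80 and 8.61 in LSP A and B and the floor in LSP M, at 10.74, 10.72 and 10.40 in USP, and at the floor in CD8 B and C and 9.82 in CD8 D. CD8 D thus lay inside the SP range of both. With all 3 CD8 samples, neither probe set passed (100468_g_at, 3.70 ± 1.12, adjusted p = 0.126; 100467_at, 1.60 ± 0.82, adjusted p = 0.387; SE, limma). Without CD8 D, 100468_g_at was 5.30 higher in SP (adjusted p = 0.00193, with 0.00193 to 0.489 over all settings), and 100467_at did not pass under any setting tried (lowest adjusted p = 0.0961).

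Nfe2, measured by 98010_at alone, varied little across SP samples: 11.23, 11.53 and 11.66 in LSP A, B and M, and 11.59, 11.54 and 11.62 in USP N, O and Z. CD8 B and C were at the floor, and CD8 D was at 10.21, still below every SP sample. The difference was 3.46 ± 0.71 (SE, adjusted p = 0.0376). Leaving out CD8 D gave 4.53 (adjusted p = 2.7e-05), whereas leaving out CD8 B or C gave 2.93 (adjusted p = 0.128 and 0.13), and leaving out any 1 of the 6 SP samples gave an adjusted p of 0.0643 to 0.0736. It was 0.0651 with a floor of 6, 0.11 with no filter and 0.269 over arrays with positive values alone.

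CD8 D carried its T cell transcripts like the other CD8 samples, with 9 of 10 T cell markers detected in each. None of the 7 stem cell, 7 granulocyte, 6 erythroid, 5 megakaryocyte, 6 mast cell and basophil and 4 B cell markers on the array was detected in CD8 D. The megakaryocyte and the mast cell and basophil markers were detected in no ten-cell sample of any population. Some of the other markers, such as Kit, Epor and Mpo, were at the floor in every ten-cell sample. For these markers, lack of detection in CD8 D does not show that such cells were absent. A list of 8 monocyte and macrophage genes, drawn up after these values were seen, had 2 to 5 detected in the SP samples, 5 in CD8 D, 3 in CD8 B and 2 in CD8 C. Their summed levels ranged over 2682 to 8051 intensity units in SP samples and were 8262 in CD8 D, 4353 in CD8 B and 3212 in CD8 C. Lysozyme (Lyz2) was at 10.01 in CD8 D and at the floor in CD8 B and C, the receptor gene Csf1r was at 9.32 and at the floor in the other CD8 samples, and Cd14 and Fcgr1 were at the floor in all 3. Ctss and Cst3 were lower in CD8 D (10.22 and 9.50) than in CD8 B (10.60 and 10.23). Tyrobp was higher in CD8 D (12.01) than in CD8 B (9.92) and CD8 C (the floor). Fcer1g was at 8.12 in CD8 D and at the floor in CD8 B and C. The sort was gated on CD3 and CD8 together. The part of monocytes and macrophages in the Lyl1 and Nfe2 values of CD8 D was not tested. Detection in CD8 D with both other CD8 samples at the floor was seen for 56 probe sets in all, against 66 for CD8 B and 70 for CD8 C.

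Lmo2 is the bridging subunit. Its probe set 96810_at was at 10.24, 10.74 and 11.34 in LSP A, B and M, at 10.17, 10.41 and 11.54 in USP N, O and Z, and at the floor in each CD8 sample. The difference was 3.74 ± 0.35 (SE, adjusted p = 0.00122), at least 13.4-fold, and it passed under all 18 settings, with values of 2.74 with a floor of 8 to 4.74 with a floor of 6. The other probe set, 93666_at, ordered the samples of each population the other way round: it was at 10.43 and 10.02 in LSP A and B but at the floor in LSP M, and at 9.32, 8.48 and 8.33 in USP N, O and Z, with CD8 at the floor again. Its difference of 1.93 ± 0.74 did not pass (adjusted p = 0.221) and was 2.47 without LSP M (adjusted p = 0.00394, with 0.000471 to 0.5 over all settings). Over the 6 SP samples the pair of Lmo2 probe sets correlated at r = -0.68, a description over samples that share their scaling, and LSP M, where 1 reads 11.34 and the other the floor, is the widest gap.

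Gata2, the GATA partner of stem and progenitor cells, was at 9.19, 9.30 and 7.56 in LSP A, B and M and at 9.14, 8.94 and 7.11 in USP N, O and Z by 102789_at. All 3 CD8 samples were at the floor, so the groups did not overlap, but LSP M and USP Z came within 1 log2 unit of it. The difference of 1.54 ± 0.57 did not pass (SE, adjusted p = 0.2). It passed over arrays with positive values alone (0.92, adjusted p = 0.000935, up to 0.459 over the other settings), a fit with 1 LSP and 1 USP sample whose spread is that of the CD8 samples, which all sit at the floor. The second Gata2 probe set, 161820_f_at, was at the floor in all 9 samples and could not be tested. LSP M and USP Z, lowest for Gata2, were the samples highest for Tal1 and for Lmo2 96810_at.

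Myb was at 9.33, 10.47 and 9.0 in LSP A, B and M and at 9.46, 10.33 and 10.50 in USP N, O and Z by 92644_s_at, with all CD8 samples at the floor. The difference was 2.85 ± 0.37 (SE, adjusted p = 0.0059), at least 7.20-fold, and it passed under all 18 settings (adjusted p up to 0.0302). The other Myb probe set, 162411_f_at, stayed at or near the floor, with 7.14 in LSP M as its highest level. Its difference was 0.03 ± 0.08 (adjusted p = 0.862), so the call for Myb, like that for Lmo2, rests on 1 of 2 probe sets.

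**Figure D2:**
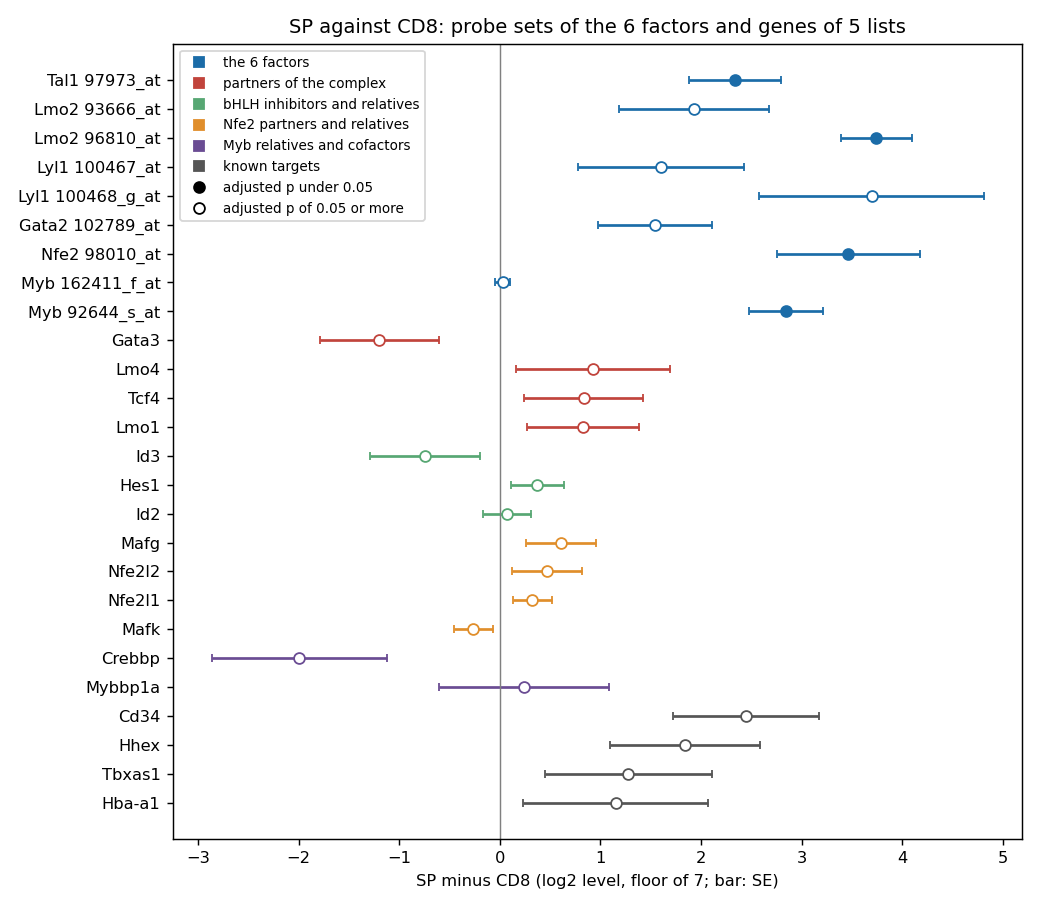
SP minus CD8 on the log2 scale (x axis, bars are SE, 6 SP and 3 CD8 samples) for the 9 tested probe sets of the 6 factors and for the genes with the largest differences in 5 lists of partners, relatives and targets. Filled points pass the adjusted threshold, and the 4 that do all belong to the 6 factors.

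LSP was compared with USP to ask whether the lower and upper parts of the SP region differ. None of the 9 tested probe sets passed (limma, 3 against 3 samples), and 0 had an unadjusted p under 0.05; over all probe sets tested 0.103% passed, and 409 had an unadjusted p under 0.05. The median difference of the 9 was 0.04 on the log2 scale, against 0.00 over all tested. The order of population means was LSP, USP, CD8 for Tal1 (9.63 ± 0.67, 9.03 ± 0.98 and the floor, SD, n = 3 each), for Lmo2 96810_at (10.78 ± 0.55, 10.71 ± 0.73 and the floor) and for Gata2 102789_at (8.68 ± 0.97, 8.40 ± 1.12 and the floor). In each of these LSP and USP differed by less than the spread between samples, with differences of 0.60 ± 0.53, 0.07 ± 0.41 and 0.28 ± 0.65 (SE).

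The order of means was USP, LSP, CD8 for both probe sets of Lyl1, for Nfe2 and for Myb 92644_s_at (Myb 162411_f_at, near the floor throughout, had 7.05 in LSP and 7.01 in USP). Lyl1 stood furthest apart: its 3 LSP samples lay within 10.81 to 12.66 and its USP samples within 12.89 to 13.05 by 100468_g_at, and by 100467_at its LSP samples reached at most 9.80 against 10.40 to 10.74 in USP, so that neither probe set had an LSP sample as high as any USP sample, which held for 2.89% of all probe sets tested. LSP minus USP was -1.29 ± 1.29 (SE, unadjusted p = 0.352, adjusted p = 0.885) and -2.15 ± 0.95 (unadjusted p = 0.0581, adjusted p = 0.84). For Myb 92644_s_at it was -0.50 ± 0.42 and for Nfe2 -0.11 ± 0.82, both within the spread of the samples. With arrays of positive values alone, 4 probe sets passed, Tal1 at -1.24, Lmo2 96810_at at -0.49, Lmo2 93666_at at 2.07 and Gata2 102789_at at 1.60. That fit holds 1 LSP and 1 USP sample, and over all probe sets 690 were then higher in LSP and 506 lower.

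Single SP cells were next read by the number with a probe set at the detection level. One level of 512 units was set for all probe sets, whose response differs, so the counts describe probe sets and do not rank the genes by the cells that carry them; the pairs of Lmo2 and of Lyl1 differ within a gene. Detection at a log2 level of 9 was seen in 12 of 12 cells for Lmo2 96810_at, 8 for Nfe2, 7 for Lyl1 100468_g_at, 5 for Lmo2 93666_at, 3 for Tal1, 3 for Gata2 102789_at and 2 for Lyl1 100467_at. The SCE gave 5 of 5, 4, 5, 2, 0, 0 and 4 in the same order of probe sets. Neither Myb probe set nor Gata2 161820_f_at was detected in any cell or SCE. By single-cell Q-PCR the paper found Lmo2 in every cell, and Lyl1 and Tal1 (Scl) in about as many cells as lacked them. It describes a similar rate for Lyl1 and Tal1 by its array calls, which follow another rule than the level of 512 units. With a detection level of 8, Tal1 was detected in 5 cells, and with a level of 10 in 1. Counting error alone is wide with 12 cells: exact Clopper-Pearson 95% intervals ran over 34.9% to 90.1% for Nfe2, 27.7% to 84.8% for Lyl1 100468_g_at and 5.49% to 57.2% for Tal1 and for Gata2.

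**Figure D3:**
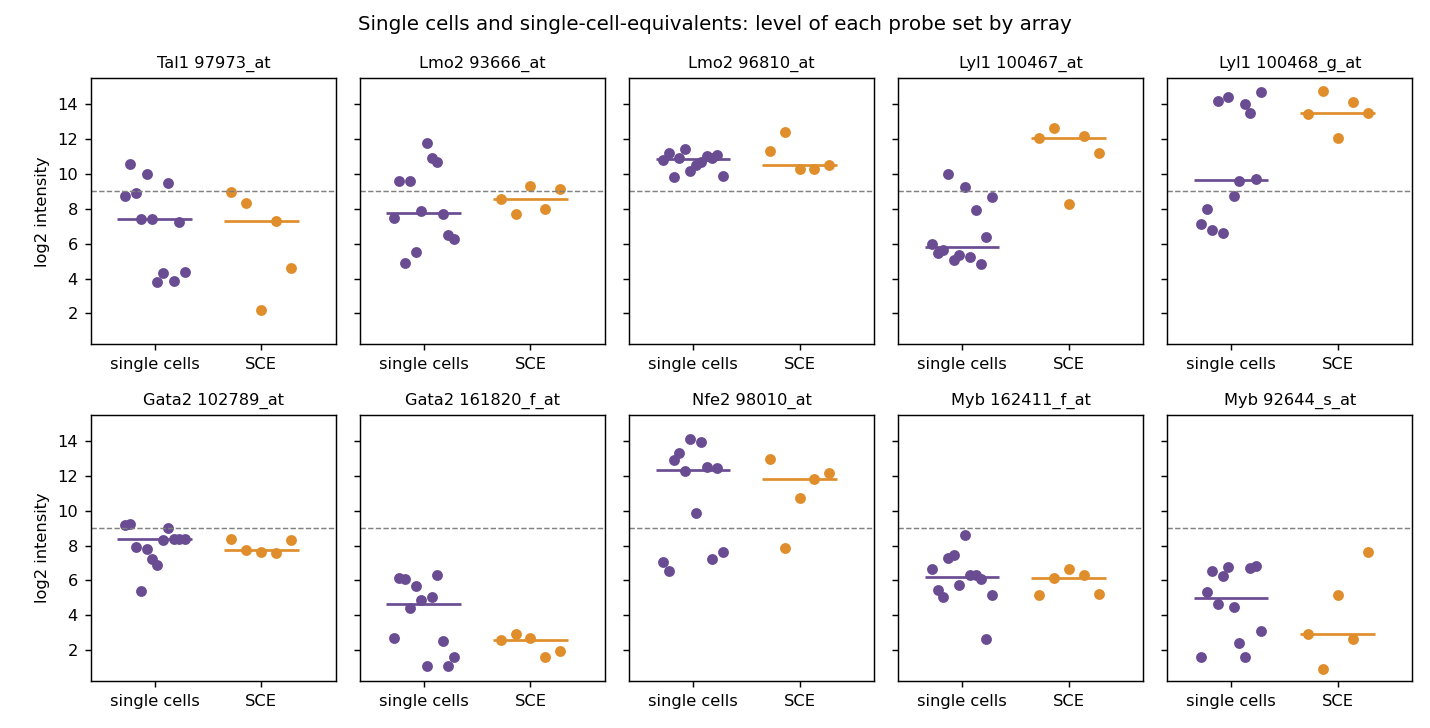
Log2 intensity (y axis) of the 10 probe sets on 12 single-cell and 5 SCE arrays, each point 1 array, each bar the median, the dashed line the detection level of 9. Lmo2 96810_at is above the line on every array, both Myb probe sets are below it on every array, and Lyl1 100468_g_at falls into cells near 14 and cells under 10.

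Lmo2 96810_at was found in every single cell. Intensities lay between 907.3 and 2770 (median 1880) over the 12 cells, a 3.05-fold range, and between 1227 and 5499 over the 5 SCE, where SCE B was the highest. Its biological proportion, the estimated share of the variance among cells that goes beyond the variance among SCE, was 0.0 (mean absolute deviation from the median 0.40 in cells and 0.64 in SCE on the log2 scale). Of 800 probe sets detected in all 6 ten-cell SP samples, 19.5% were detected in all 12 cells, and Lmo2 96810_at was the only member probe set among these. Lmo2 93666_at varied more, from 29.9 to 3504 over cells (117-fold) against 209.4 to 622.0 over SCE, and the pair correlated at r = 0.21 over the cells.

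Lyl1 100468_g_at divided the cells. Cells D, F, I, J and L were at 18432, 21556, 16405, 11441 and 26587 intensity units, and the other 7 cells lay between 99.4 and 833.4, with no cell in between, a 267-fold range from lowest to highest. The 5 SCE were at 11176, 28249, 4304, 18187 and 11635, all above the 7 low cells and within or below the range of the high ones except SCE B. The mean absolute deviation was 2.80 in cells and 0.68 in SCE (exact one-sided permutation test over 6188 splits, p = 0.0115, adjusted p = 0.254 over 4215 probe sets), and the biological proportion was 0.944.

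The other Lyl1 probe set, 100467_at, was detected in cells D and G alone, at 1005 and 620.4, against 314.8 to 6391 in SCE, where SCE C was the lowest. Cells had a lower log2 level than SCE by this probe set, with a difference of -4.63 ± 0.94 (SE, limma, unadjusted p = 9.2e-05), which did not pass over the 4659 probe sets tested (adjusted p = 0.107). It passed with a floor of 7 (-3.63, adjusted p = 0.0215), with a floor of 9 (-2.32, adjusted p = 0.0267) and without SCE C (-5.38, adjusted p = 0.0484). Over the other settings the adjusted p reached 0.298. The SCE share 1 lysate, so these p-values cover no spread between lysates. The pair of Lyl1 probe sets thus disagreed in single cells, where 100468_g_at was at 21556 and 11441 in cells F and J while 100467_at was at 40.3 and 28.7. Over the 12 cells they correlated at r = 0.41.

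Nfe2 was at 947.7 to 17464 in the 8 cells where it was detected (C to I and K) and at 93.7 to 197.5 in cells A, B, J and L, a 186-fold range. SCE B, at 227.5, was the only SCE under the detection level, and the other 4 lay between 1690 and 7831. The biological proportion was 0.598 and became 0.922 without SCE B and 0.499 without SCE C, while the spread did not pass (mean absolute deviation 2.37 in cells and 1.31 in SCE, exact permutation p = 0.162).

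Tal1 was detected in cells B, E and I, at 1536, 1022 and 727.1, just missed in cells A and C (421.2 and 481.7), and was at 13.9 to 171.7 in the other 7. SCE A came closest to the level of detection, with 492.1, and SCE C was at 4.60. Cells spread no wider than SCE (mean absolute deviation 2.01 in cells and 2.10 in SCE), and the biological proportion was 0.0, an estimate that moved to 0.603 and 1.0 with floors of 7 and 9, to 0.155 after quantile normalization and to 0.516 without SCE C. Gata2 102789_at was detected in cells A, B and I at 575.8, 605.6 and 515.1, close to the detection level of 512, and its 5 SCE lay between 191.3 and 327.9. With a detection level of 8 it was detected in 7 cells and with a level of 10 in none. Its biological proportion was 0.898, but the spread did not pass (mean absolute deviation 0.75 in cells and 0.29 in SCE, exact permutation p = 0.105, adjusted p = 0.483). Most of the Gata2 values behind it were under the detection level, with cell D the lowest at 42.7.

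Myb stood apart from the other genes in that the experiments differed. Intensities of 92644_s_at were 411.3 to 1494 on the 12 ten-cell SP arrays, but only 3.10 to 114.9 in the 12 cells and 1.90 to 197.6 in the 5 SCE. Of the 800 probe sets detected in all 6 ten-cell SP samples, 4 (0.5%) were under the detection level on all 17 single-cell and SCE arrays, and Myb was 1 of these, beside probe sets of Rasa4, Zbtb45 and Trim30a. The 2 experiments were sorted and amplified apart, single cells came from the tip of the SP region, and an exact 95% interval for 0 of 12 cells reaches 26.5%, so gate, amplification and sampling cannot be told apart here.

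None of the 7 member probe sets detected in a cell passed the test of level (limma, 2 with an unadjusted p under 0.05, both of Lyl1) or of spread (exact permutation, 2 with an unadjusted p under 0.05, Lyl1 100468_g_at at 0.0115 and Lmo2 93666_at at 0.0152). Over all probe sets, 0.0429% passed the test of level and 0.546% that of spread, while 5.69% and 12.5% had an unadjusted p under 0.05. A biological proportion of at least 0.5 was estimated for 4 of the 7 (Lyl1 100468_g_at, Lmo2 93666_at, Gata2 102789_at and Nfe2), against 41.6% of all 4215 probe sets detected in a cell. The median was 0.598 for the 7 and 0.355 over all.

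**Figure D4:**
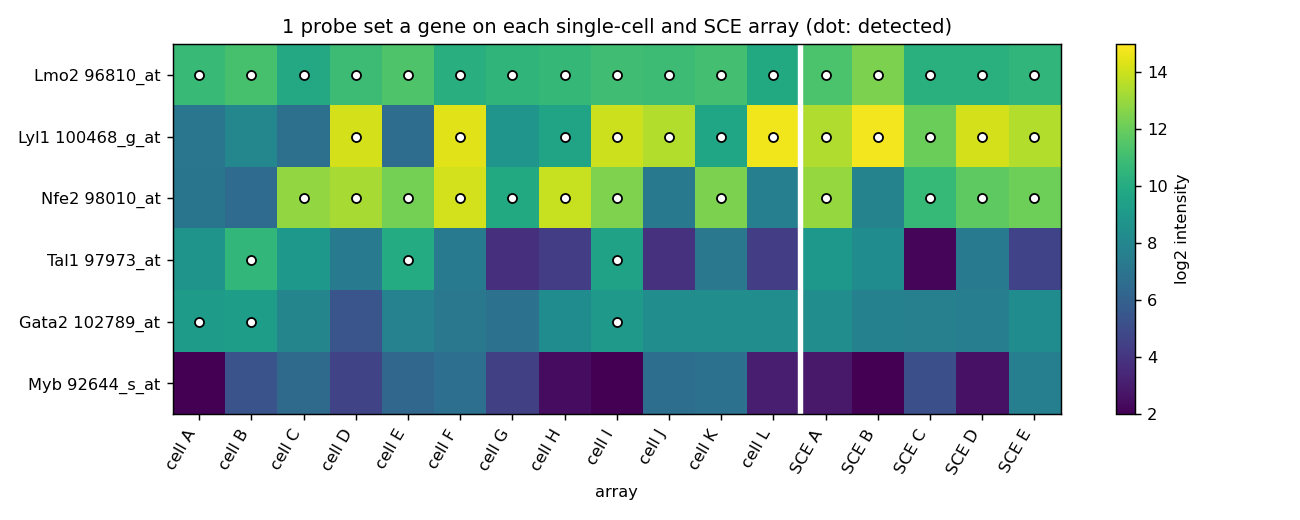
Log2 intensity (colour) of 1 probe set for each of the 6 genes on the 12 single-cell and 5 SCE arrays, with a dot where it was detected. Every column has a dot for Lmo2 and none for Myb, and at this level, of 512 units, cell I is the only array with dots for the other 5 genes together, with Gata2 there at 515.1.

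Read together in each cell, with 1 probe set a gene, Lmo2 was detected with a changing set of companions. Cell I had Tal1, Lmo2, Lyl1, Gata2 and Nfe2 all detected, 6 cells had 3 of the 5 and 5 cells had 2. The pattern rests on the detection level and on the probe set taken for each gene: Gata2 in cell I was at 515.1, next to the level of 512, and the second Lyl1 probe set was at 241.3 there. With a detection level of 8, cell I had 5, 3 cells had 4 and 8 had 3, and with a level of 10 no cell had more than 3. Lyl1 and Tal1, which can occupy the same place in the complex, were both detected in cell I alone, while 6 cells had Lyl1 without Tal1, 2 had Tal1 without Lyl1 and 3 had neither; with a level of 8, cells B and I had both and with a level of 10 none did. Gata2 accompanied Tal1 in cells B and I. Gata2 and Nfe2 were both detected in cell I alone, with 7 cells having Nfe2 without Gata2 and 2 the reverse, but with a level of 8 cells H, I and K had both, 5 had Nfe2 alone and 4 Gata2 alone. Among SCE, 4 had Lmo2, Lyl1 and Nfe2 and 1 had Lmo2 and Lyl1.

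Log2 levels of these genes were also correlated in pairs over the 12 cells. Pearson's r ran from -0.49 for Gata2 and Nfe2 (Spearman's rho -0.601) to 0.39 for Tal1 and Lmo2 (rho 0.483), with -0.38 for Tal1 and Lyl1 (rho -0.406), over 10 pairs of 5 genes. The points are single arrays that share their scaling, and the values are descriptions. The number of all probe sets detected in cell I was 1305 within a range of 1194 to 1489 over the 12 cells.

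The genes known to act with the 6 factors were tested as 5 lists, drawn up from general knowledge. A listed gene or marker with more than 1 probe set was read by the one with the highest mean over the 9 ten-cell samples. Of the partners of the complex, 13 of the 17 on the array could be tested and 0 passed in SP against CD8 (limma; median -0.11). The T cell GATA factor Gata3 had -1.20 ± 0.59, and the LIM-only genes Lmo4 and Lmo1 and the E protein gene Tcf4 had 0.93, 0.83 and 0.83, none past the threshold, although Lmo1 passed without USP Z (1.24, adjusted p = 0.00259, up to 0.943 over all settings). Cbfb, the partner of Runx1, was at 11.81 to 12.65 in SP, below its 12.83 to 13.18 in CD8 (difference -0.63, unadjusted p = 0.0122, adjusted p = 0.121; named after its values were seen), and passed without LSP B (-0.74, adjusted p = 0.0298). The E protein gene Tcf3, and Runx1, were at the floor in every sample, which does not show that their transcripts were absent.

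No gene passed among 3 tested inhibitors and relatives of basic helix-loop-helix factors (Id3 -0.74, Hes1 0.37, Id2 0.07), 6 tested Nfe2 partners and relatives (Mafg 0.61, Nfe2l2 0.47, Nfe2l1 0.32, Mafk -0.27), or 2 tested Myb relatives and cofactors (Crebbp -1.99, Mybbp1a 0.24). Among known targets, 14 of 21 on the array could be tested and 0 passed, with a median of 0.46. The stem cell surface gene Cd34 had 2.45 ± 0.73 (adjusted p = 0.12), the homeobox gene Hhex 1.84 ± 0.74 (adjusted p = 0.246), the thromboxane synthase gene Tbxas1, a target of Nfe2, 1.27, and the alpha globin gene Hba-a1 1.15. The receptor gene Kit was at the floor in all 9 samples, which does not show that its transcript was absent. The paper found c-kit by Q-PCR in part of its single stem cells, although nearly all its single-cell arrays called it absent. Cd34 was at the floor in 1 SP sample, LSP M, and passed without it (2.94, adjusted p = 0.00751, with 0.000471 to 0.306 over all settings). Leaving out 1 sample also brought Crebbp past the threshold without LSP B (-2.57, adjusted p = 0.039, up to 0.638 over all settings) and Hba-a1 without CD8 B (2.45, adjusted p = 0.0415). Over arrays with positive values alone, 1 LSP and 1 USP sample remained, so the spread was that of the CD8 samples alone. Genes past the threshold there, all higher in SP, were the partners Tcf4 and Cbfa2t3, the relative Hes1 and the Nfe2 relatives Mafg and Nfe2l2. The targets Cd34, Hhex, Spi1 and Gp9 were the others (differences of 0.29 for Mafg to 3.49 for Cd34). For all of these but Hhex and Gp9, every CD8 sample sat at the floor, so passing in this fit cannot show a difference.

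The same lists were read in single cells. Here a gene was read by its probe set with the highest mean over single-cell and SCE arrays. For some genes, such as Gata1 and Bcl2, this was not the probe set read in ten-cell samples. The listed genes that were each detected in at least 1 of the cells numbered 10 of 17 partners and 3 of 6 inhibitors and relatives. For the other lists they numbered 2 of 6 Nfe2 partners, 1 of 4 Myb relatives and 8 of 21 targets. No listed gene was detected in all 12. Of all 12422 probe sets, 33.9% were detected in at least 1 cell, a share over probe sets not chosen by their mean and so not of the same kind. None passed the test of spread, although Lmo4 (6 cells), Id3 (1 cell) and Hhex (3 cells) had unadjusted exact permutation p of 0.0388, 0.0157 and 0.0399. Hba-a1 passed the test of level, with a difference of -4.51 (limma adjusted p = 0.0189). It was detected in 3 of 12 cells and in 5 of 5 SCE. The SCE are aliquots of 1 lysate, so this p-value covers no spread between lysates.

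The genes most alike to each factor over the 9 ten-cell samples were sought among 3863 probe sets, and the 3 highest correlations are given without a test, since such a search returns high values by its construction and all 9 points share the scaling and the difference between SP and CD8. They were Ell2, Adgrg1 and Tmsb4x for Lmo2 (r = 0.998 to 0.991), Odc1, Lyz2 and Nfe2 for Lyl1 (0.968 to 0.939), Capg, Aldh2 and Creg1 for Nfe2 (0.985 to 0.976), Ccdc50, Kansl2 and Rps10 for Tal1 (0.971 to 0.963), Sltm, Gtf2b and Slc35a2 for Gata2 (0.987 to 0.974), and Uba7, Pcna and Scamp2 for Myb (0.970 to 0.966). Nfe2 and Lyz2, both among the genes most alike to Lyl1, were like it detected in CD8 D and neither in CD8 B nor in CD8 C. Over the 12 single cells the search covered 1704 probe sets detected in at least 3 cells and not in all 12. Lmo2 96810_at, Lyl1 100467_at, Gata2 161820_f_at and both Myb probe sets were outside it and could not be returned. None of the member probe sets within it was among the 3 most alike to another factor. The genes most alike were Ube2s, Rab10 and Mycbp2 for Lmo2 (0.899 to 0.817), Glul, Lrp10 and Arl2bp for Lyl1 (0.791 to 0.776), Maged1, Slc25a39 and Ppa1 for Nfe2 (0.870 to 0.807), Fads1, Slc38a2 and Tubb3 for Tal1 (0.870 to 0.825), and Ifitm3, G3bp2 and Med20 for Gata2 (0.754 to 0.729).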

How the data were processed

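Signal intensities on a linear scale, 1 table of 35 arrays, were deposited by the authors, who describe RMA levels on the log2 scale in their methods; the deposited intensities are not these, so the planned log2 floor and detection level were applied to log2 of the intensities. The 66 control rows were left out, and of 12422 probe sets 10833 had 1 gene in the platform annotation, 396 several and 1193 none. No column of another series was in the table.

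The mean of the log2 levels of 2 arrays (floor of 7 per array) was 1 sample. limma 3.58.1 (R 4.3.3) was fitted to 9 ten-cell samples with 3 populations over probe sets above the floor in any sample, SP being the mean of LSP and USP, with Benjamini-Hochberg adjustment at 0.05. Single cells and SCE were compared over probe sets at a log2 level of 9 or more in at least 1 array (level, limma) or at least 1 cell (spread), with no floor. Spread was tested by an exact one-sided permutation of absolute deviations from the group median (smallest possible p 0.000162), and the biological proportion was estimated by maximum likelihood in a Gaussian model after the authors' (a technical variance shared by cells and SCE, a biological one in cells), with 1 mean for both, a choice made here, on log2 intensities in place of RMA levels, in Python 3.11.15. Both programs were tested on simulated data. The alternatives were other floors, filters, quantile normalization, sample or array number as a block, arrays with positive values alone, and leaving out each sample.

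Named were all member probe sets, every listed gene that passed, up to 4 further genes a list with the largest SP against CD8 difference, and the 3 genes most alike to each factor (over single cells not for Myb, which was under the detection level throughout). The members and lists were chosen with earlier results of these data known. Intervals cover counting error alone, and no counts of reads exist for arrays, whose number limits the precision.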

Additional observations from a re-analysis of the deposited data

How the results depend on the processing

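The number of arrays and the level of the floor limit these results. Of the 10 member probe sets, 4 were higher in SP than in CD8, 3 with a floor of 6 or 8 or after quantile normalization, and 2 with no filter; leaving out 1 ten-cell sample at a time gave 2 to 4. Lmo2 96810_at and Myb 92644_s_at passed under every setting tried, and the calls of Tal1 and Nfe2 did not. Over all probe sets, 193 were higher and 205 lower in SP, and with no filter these were 95 and 119. Counts over arrays with positive values alone are not given, since 1 LSP and 1 USP sample remained and the spread was that of the CD8 samples alone.

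The array number was no pairing of samples: over 36 pairs of samples the deviations of equal numbers correlated at a median r of -0.009 (from -0.184 to 0.251). With the array number as a replicate block and the sample as a random block, 5 member probe sets were higher in SP, Lyl1 100468_g_at being added (adjusted p = 0.00741), and 0 differed between LSP and USP; with the random block alone the counts were 5 and 0. The arrays of a sample come from the same pooled amplifications, and the cause was not tested.

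Between LSP and USP no member passed, except that 4 passed over arrays with positive values alone, where 1 sample a population remained. Leaving out each SCE gave 0 to 1 member lower in cells than in SCE, and floors of 7 and 9 gave 1 each, Lyl1 100467_at, against 0 without a floor. No member passed the test of spread under any alternative. A biological proportion of at least 0.5 was found for 4 members, and for 5 with a floor of 7 or 9. The number of member probe sets detected in at least 1 of the cells was 7, and it was 8 with a detection level of 8 and 5 with a level of 10.

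Some differences that did not pass changed sign. In SP against CD8, Id2 became -0.39 with a floor of 6 and -0.10 over arrays with positive values alone, where Mybbp1a became -0.93. Leaving out 1 sample at a time gave -0.10 (without LSP M) to 0.16 for Id2, -0.031 (without CD8 B) to 1.48 for Lmo4, -0.40 to 0.012 (without CD8 D) for Mafk, and -0.16 (without LSP M) to 0.72 for Mybbp1a, negative also without USP N (-0.12). In LSP against USP over arrays with positive values alone, Tal1 became -1.24, Lmo2 96810_at -0.49, Myb 92644_s_at 0.050 and Nfe2 0.050. Leaving out 1 sample gave -0.36 (without USP Z) to 0.84 for Gata2 102789_at, -0.20 (without LSP A) to 1.52 for Lmo2 93666_at, -0.21 (without LSP M) to 0.49 for Lmo2 96810_at, -0.010 (without LSP M) to 0.062 for Myb 162411_f_at, and -0.21 to 0.0076 (without LSP A) for Nfe2. In cells against SCE, the level of Lmo2 93666_at became 0.094 and 0.54 with floors of 7 and 9 and that of Nfe2 0.12 with a floor of 9. Leaving out 1 SCE gave levels of -1.09 to 0.19 (without SCE A) for Nfe2, -0.0089 (without SCE D) to 0.19 for Gata2, -0.43 to 0.11 (without SCE B) for Lmo2 96810_at and -0.12 (without SCE C) to 1.56 for Tal1. The excess spread in cells became 0.39 and 0.26 for Tal1 with floors of 7 and 9 and 0.21 after quantile normalization, and -0.42 and -0.83 for Lyl1 100467_at with those floors. Leaving out 1 SCE gave -0.61 to 0.67 (without SCE C) for Tal1 and -0.41 to 0.063 (without SCE B) for Lmo2 96810_at. The causes were not tested.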
